A study of Mus musculus with 15 samples.

Results

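The genes described here are the Wnt ligands with their receptors, secreted antagonists, R-spondins and close feedback genes, measured in mouse pancreatic stellate cells (PSC) and in pancreatic cancer cells. They were listed by gene symbol: the 19 Wnt genes, Fzd1 to Fzd10, Lrp5 and Lrp6, 4 Sfrp genes, Dkk1 to Dkk4, Wif1, Notum, Rspo1 to Rspo4, Lgr4 to Lgr6, Znrf3, Rnf43, Axin2, Lef1 and Tcf7. This gave 53 genes on 84 probes, of 36994 gene names on 56605 probes of the array. The study used 15 single-colour Agilent arrays in 5 groups of 3. PSC from wild-type (WT) mice and PSC from heterozygous (HT) mice were each cultured for 2 weeks to activate them. Cancer cells were exposed for 24 hours to control medium, to medium conditioned by WT PSC, or to medium conditioned by HT PSC. The locus at which the HT mice are heterozygous, the age and sex of the mice and the identity of the cancer cells are not given in the sources used here. Nothing in the labels says whether the 3 arrays of a group came from separate mice or cultures, so the p-values cover only array-to-array spread within a group, and this spread may be technical.

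Wnt proteins are secreted, lipid-modified ligands that bind Frizzled receptors together with the co-receptors Lrp5 or Lrp6. In the canonical branch this stabilises beta-catenin, which acts with the DNA-binding factors Tcf7 and Lef1, while other branches act on cell polarity and calcium. R-spondins bind Lgr receptors and take the ligases Znrf3 and Rnf43 off the cell surface, which leaves more Frizzled there; Sfrp and Wif1 proteins bind Wnt, Dkk1 blocks the Lrp co-receptors, and Notum removes the lipid from Wnt. In the pancreas, stellate cells are the fibroblast-like cells that lay down matrix in fibrosis and in the stroma of tumours.

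Levels are given as log2 signal relative to the 75th percentile of the array's non-control spots, so that 0 is a bright spot and values near or below -5 lie at the edge of detection. That percentile lay between 913 and 1449 signal units, between 54.3% and 63.8% of spots were well above background on each array, and no spot was saturated. A difference was called where limma's test gave a Benjamini-Hochberg adjusted p under 0.05 over all genes tested, and ± after a difference is its standard error with 3 arrays a group. Stellate cell and fibroblast markers were high on the PSC arrays, with a median level between 6.32 and 6.59, and near the edge of detection on cancer cell arrays, with a median between -6.20 and -5.35; epithelial markers had a median between 2.13 and 2.59 on cancer cell arrays. One array stood apart. On PSC HT 3 the epithelial gene Cdh1 read -2.45, whereas the 5 remaining PSC arrays lay between -8.22 and -7.61. The median epithelial marker read -2.61 there, whereas it lay between -4.73 and -4.27 on those 5. The members Wnt7a at -4.07, Fzd10 at -3.58, Dkk1 at -4.23 and Wnt2b at -4.66 also read more than 1 log2 unit above every other PSC array on PSC HT 3. So did Dkk4, Rnf43 and a dim second probe of Lgr4. The lowest signal well above background was higher too on PSC HT 3, at -4.73, against -6.01 to -5.55 on the other PSC arrays. Wnt2b, Dkk4 and Rnf43 were not well above background there. The genotype comparison is therefore also given without PSC HT 3.

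The 250 bases before the annotated start of 5 genes on which the results turn are shown in RefSeq's GRCm38.p6, 5′ to 3′ on the strand of the gene, with CpG dinucleotides in capitals. They are shown because Rspo1 and Wnt16 differed most between the PSC genotypes, and Wnt7a, Wnt9a and Lgr4 differed in cancer cells after both conditioned media.
Rspo1: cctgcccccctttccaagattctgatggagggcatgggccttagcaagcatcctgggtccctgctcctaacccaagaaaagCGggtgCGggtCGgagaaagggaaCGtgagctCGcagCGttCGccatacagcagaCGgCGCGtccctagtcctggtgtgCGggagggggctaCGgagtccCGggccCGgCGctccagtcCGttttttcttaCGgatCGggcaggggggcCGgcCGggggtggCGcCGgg
Wnt16: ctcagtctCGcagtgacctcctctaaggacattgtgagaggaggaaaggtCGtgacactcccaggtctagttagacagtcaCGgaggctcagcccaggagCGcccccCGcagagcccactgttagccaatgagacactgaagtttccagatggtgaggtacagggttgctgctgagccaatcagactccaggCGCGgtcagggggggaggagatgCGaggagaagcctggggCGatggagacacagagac
Wnt7a: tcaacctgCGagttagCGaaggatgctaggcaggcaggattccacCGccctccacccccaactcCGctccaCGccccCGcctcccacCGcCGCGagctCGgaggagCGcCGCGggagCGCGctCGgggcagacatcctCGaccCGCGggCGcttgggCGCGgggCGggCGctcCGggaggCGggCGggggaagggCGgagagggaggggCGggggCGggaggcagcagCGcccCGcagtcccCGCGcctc
Wnt9a: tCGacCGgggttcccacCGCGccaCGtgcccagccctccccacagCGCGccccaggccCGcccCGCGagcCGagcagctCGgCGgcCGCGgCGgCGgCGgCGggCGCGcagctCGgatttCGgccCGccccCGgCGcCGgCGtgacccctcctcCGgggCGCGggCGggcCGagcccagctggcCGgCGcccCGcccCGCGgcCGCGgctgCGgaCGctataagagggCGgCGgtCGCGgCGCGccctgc
Lgr4: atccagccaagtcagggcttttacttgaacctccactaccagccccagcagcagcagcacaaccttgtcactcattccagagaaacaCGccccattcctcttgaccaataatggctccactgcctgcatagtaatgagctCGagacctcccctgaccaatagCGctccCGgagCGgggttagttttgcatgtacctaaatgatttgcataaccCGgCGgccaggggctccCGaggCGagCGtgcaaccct
The Rspo1 window lies at chr4:124986180-124986429 (plus strand) and holds 22 CpG, that of Wnt16 at chr6:22287977-22288226 (plus strand) holds 9, that of Wnt7a at chr6:91411354-91411603 (minus strand) holds 34, that of Wnt9a at chr11:59306680-59306929 (plus strand) holds 48, and that of Lgr4 at chr2:109917397-109917646 (plus strand) holds 10. The median over all 32851 promoter windows of this length in the RefSeq table was 6 CpG, and that over the 42 windows of members was 18.5. None of these 5 windows held the letters of a Tcf/Lef core, searched on both strands as CTTTG followed by a pair of letters that are each A or T. Of the 42 windows of 34 members in that table, 5 held it (11.9%), those of Fzd7, Lef1, Wnt5b, Wnt11 and Dkk1, against 14.8% of all windows. A match is a run of letters and not a binding site.

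Of the 53 genes, 37 stood well above background throughout at least 1 group, judged on the brightest probe of each. Only these entered the main tests. The remaining 16 comprised 8 that were well above background on no array, namely Wnt2b, Wnt3, Wnt3a, Wnt6, Dkk4, Wif1, Rspo4 and Lgr5, and 8 that were so on some arrays only, namely Wnt8a, Wnt8b, Wnt9b, Fzd10, Sfrp5, Dkk1, Lgr6 and Axin2. Axin2, a negative regulator that is itself a standard Wnt target, was well above background on 1 of 3 WT and 2 of 3 HT PSC arrays and on no cancer cell array. A common set of 17 genes was well above background on all 15 arrays: the ligands Wnt1, Wnt5a, Wnt5b, Wnt7b and Wnt9a, the receptors Fzd1, Fzd2, Fzd4, Fzd5, Fzd6, Fzd8 and Fzd9, both Lrp co-receptors, Notum, Lgr4 and Znrf3. Fzd7 was well above background on every array but PSC WT 2, where its spot was left out. A further 8 were above background on all 6 PSC arrays and on no cancer cell array, namely Wnt2, Wnt16, Sfrp1, Sfrp2, Dkk2, Rspo2, Rspo3 and Lef1. The reverse held for Wnt10a and Rnf43. Wnt7a and Tcf7 were above background on all cancer cell arrays and on 1 PSC array each, which for Wnt7a was PSC HT 3. Dkk3 and Rspo1 were above background on all 6 PSC arrays. Dkk3 was so also on 1 control array, and Rspo1 on 1 array of each conditioned medium.

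**Figure D1:**
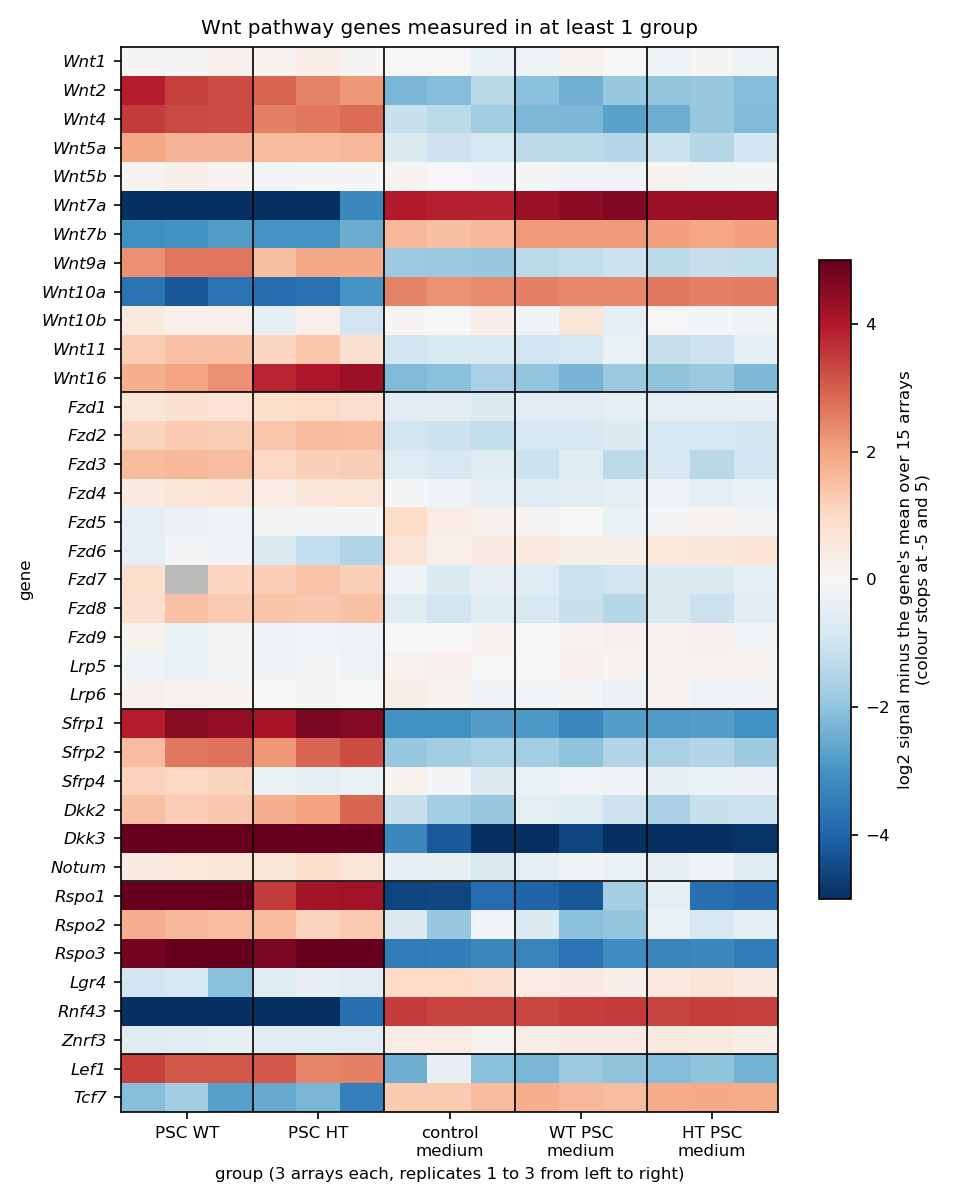
Levels of the 37 members measured throughout at least 1 group (rows, by role from ligands at the top to Lef1 and Tcf7 at the bottom) on the 15 arrays (columns). Colour is the log2 signal minus the gene's mean over the arrays, red above and blue below, and grey marks the 1 spot left out (Fzd7 on PSC WT 2). The PSC columns and the cancer cell columns differ far more than the columns within either cell type.

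The first comparison asked which members the 2 cell types use, with WT PSC set against cancer cells in control medium. Of 37 members tested, 32 (86.5%) differed, 22 higher and 10 lower in PSC. This share has to be read against the background, since 71.4% of all 21921 genes tested were called (36.2% higher and 35.2% lower). The same 32 members had an unadjusted p under 0.05, against 73.7% of all genes. The median difference was 1.31 over the members tested and 0.04 over all genes tested. A member entered the test by being above background in at least 1 of the groups compared. Markers of other cell types also differed between WT PSC and cancer cells. Of 10 mesothelial markers 8 were higher in PSC, with Rspo1 among the 8, and 2 lower. Of 15 macrophage markers 11 were higher and 2 lower, and of 6 endothelial markers tested 5 were higher and 1 lower. Of 6 Schwann cell markers 2 were higher and 2 lower, and of 2 acinar markers 1 was higher. All 14 stellate cell markers tested were higher and all 14 epithelial markers lower. With Rspo1 left out, the median mesothelial marker lay between 1.01 and 1.69 on the WT PSC arrays. There the median macrophage marker lay between -1.53 and -0.39 and the median endothelial marker between -4.25 and -3.88. The part of these cells in the differences between PSC and cancer cells was not tested.

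Among the ligands, 6 were higher and 3 lower in PSC. Wnt7a, a ligand made mostly by epithelia, read 3.12, 3.02 and 2.99 on the control cancer cell arrays and -7.65, -8.28 and -7.71 on the WT PSC arrays, where it was not well above background. The bound this sets is at least 433-fold lower in PSC (limma adjusted p = 2.62e-08). Bounds of this kind set the brighter group's mean against the lowest signal well above background on the dimmer arrays, in the main processing only. Wnt10a was likewise lower by at least 17.1-fold, and the third ligand that was lower, Wnt7b, read 0.38 ± 0.08 (SD, n = 3) in control cancer cells and -4.19 ± 0.14 (SD, n = 3) in WT PSC. The ligands higher in PSC were Wnt2, by at least 10.9-fold, Wnt16, by at least 3.97-fold, Wnt4, Wnt9a, Wnt5a and Wnt11. Wnt4, known for its part in mesenchymal to epithelial transitions, read 0.38, 0.21 and 0.16 in WT PSC and -4.23, -4.47 and -4.84 in control cancer cells, a difference of 4.76 ± 0.17. Wnt9a differed by 4.39 ± 0.13, and Wnt5a, the best known ligand of the branches that do not need beta-catenin, by 2.66 ± 0.12. Wnt11, which was well above background on 1 of 3 control arrays, differed by 2.23 ± 0.10. Wnt1, Wnt5b and Wnt10b did not pass the test, with differences between 0.19 and 0.24.

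The receptors differed less in size. Fzd2, Fzd3, Fzd8, Fzd7, Fzd1 and Fzd4 were higher in PSC by 0.78 to 2.30, the largest being Fzd2 at 2.30 ± 0.11; the Fzd7 value rests on 2 WT PSC arrays, because 1 spot was left out as an outlier. Fzd5, Fzd6 and the co-receptor Lrp5 were lower in PSC, by -0.81 ± 0.19, -0.69 ± 0.15 and -0.36 ± 0.11. The Lrp5 call was lost without PSC WT 1 or 2 or control 1 or 2 (adjusted p between 0.0605 and 0.0810). The co-receptor Lrp6 read 2.32 ± 0.06 (SD, n = 3) in PSC and 2.25 ± 0.23 (SD, n = 3) in cancer cells and Fzd9 differed by -0.14 ± 0.14, neither past the threshold.

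All 6 secreted antagonists that were tested were higher in PSC. Dkk3, a member of the Dickkopf family that, unlike Dkk1, is not a clear Lrp blocker, read 4.72, 4.55 and 4.57 in WT PSC and -5.70, -6.67 and -7.67 in control cancer cells, of which 1 array was well above background. The difference in mean was 11.30 ± 0.46, and its size rests on control readings at or near the edge of detection. Sfrp1, which binds Wnt outside the cell, was higher by at least 33.0-fold, Sfrp2 by at least 3.28-fold and Dkk2 by at least 3.19-fold. Sfrp4 differed by 1.31 ± 0.22 and the Wnt deacylase Notum by 1.03 ± 0.12. A dimmer second probe of Notum read -3.40, -3.79 and -3.54 in WT PSC and -4.16, -3.03 and -3.70 in control cancer cells. On that probe the groups overlapped.

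The R-spondin axis split by cell type. The R-spondins were higher in PSC: Rspo1 by at least 424-fold, Rspo3 by at least 74.2-fold and Rspo2 by at least 3.73-fold. Their receptor Lgr4 and the ligases they act on were lower in PSC. Lgr4 read -1.03, -0.95 and -2.17 in WT PSC and 0.89, 0.91 and 0.74 in control cancer cells, so PSC WT 3 was low within its group and the groups did not overlap. Rnf43 was lower in PSC by at least 118-fold, with 1.24, 1.13 and 1.12 on the control arrays, and Znrf3 by -0.84 ± 0.10. Among the nuclear factors, Lef1 was higher in PSC by at least 9.68-fold. Tcf7 was lower by -3.60 ± 0.24, with 1 of 3 PSC arrays well above background.

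**Figure D2:**
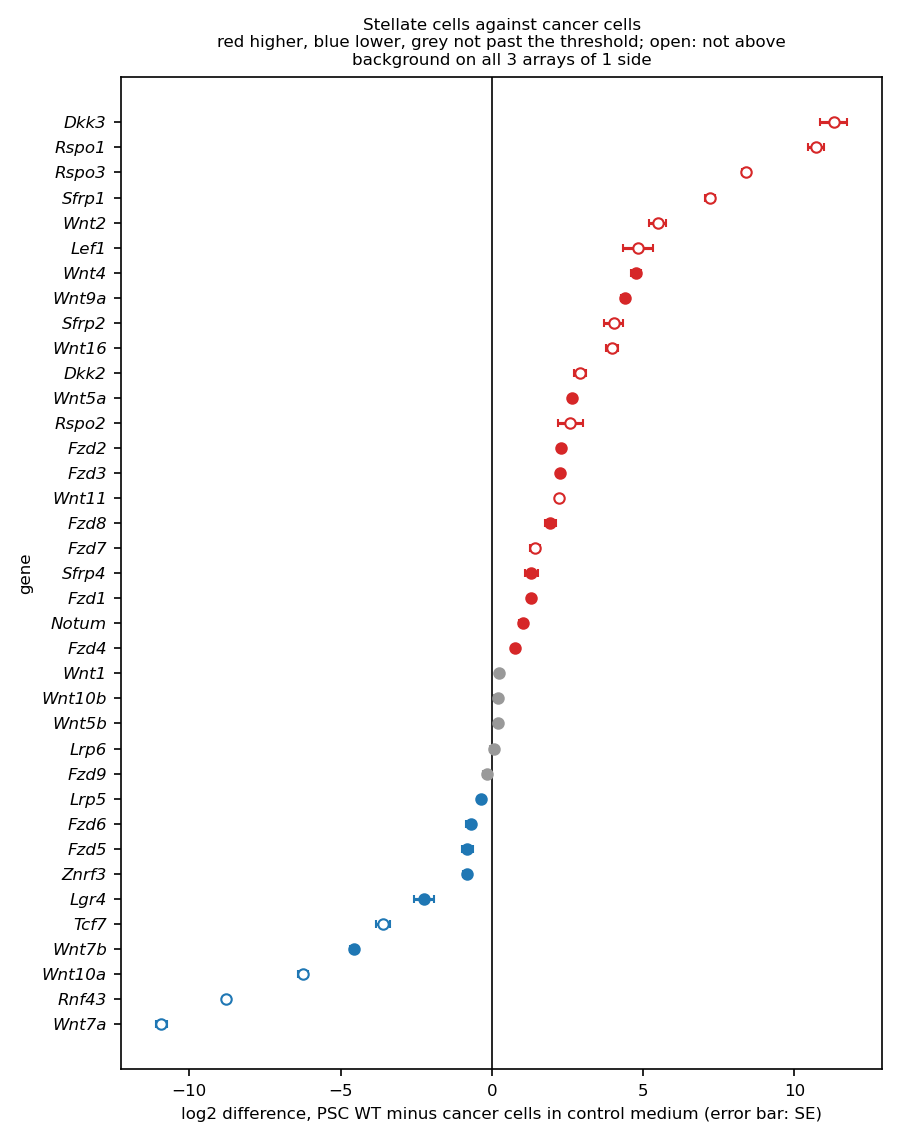
Log2 difference between WT PSC and cancer cells in control medium for the 37 members tested (horizontal axis, points with standard errors, 3 arrays a group, 2 for Fzd7 in PSC), sorted. Open points were not well above background on all 3 arrays of 1 of the groups, so their size is less certain. Fzd7 is open only because its spot on PSC WT 2 was left out. Dkk3, Rspo1 and Rspo3 stand at the top and Wnt7a, Rnf43 and Wnt10a at the bottom.

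Other genes of the pathway were taken from 4 lists. Of 21 genes on the array for Wnt secretion, extracellular modulation and alternative receptors, 18 were tested, 16 were higher and 2 lower in PSC. Gpc3 was higher by at least 204-fold, Gpc4, also a glypican that carries Wnt at the surface, by 8.75 ± 0.12, Trabd2b, a Wnt-cleaving protease, by 8.03 ± 0.59 and the receptor kinase Ror1 by at least 46.7-fold. Of 32 destruction complex and nuclear complex genes tested, 12 were higher and 9 lower; Tcf7l1 was higher by 2.69 ± 0.11, Tnik by 1.95 ± 0.27 and Pygo1 by at least 1.23-fold, and beta-catenin itself, Ctnnb1, was lower by -1.86 ± 0.09. Of 21 genes tested from the polarity and calcium branches, listed together, 11 were higher and 4 lower. Among them were Daam2, higher by at least 41.4-fold, and Nfatc2, lower by -6.21 ± 0.15. Of 28 target genes tested, 13 were higher and 12 lower. They included Ccn5, higher by at least 1531-fold, Nkd1, a feedback inhibitor, higher by at least 173-fold, and the intestinal factor Cdx2, lower by at least 261-fold. These counts stand beside the same 71.4% background. Spike-in controls had a slope between 0.909 and 0.927 on the WT PSC arrays and between 1.05 and 1.06 on all cancer cell arrays, so array response and cell type cannot be told apart here. Scaling each array by its median moved the median over all genes to -0.36 and the share of calls that were higher from 50.6% to 33.5%, and turned the sign of none of the 32 members. With normexp background correction 16 of the 32 log2 differences became smaller by over 1.5 times and no call was lost. Among those given above as differences, Fzd3 became 1.40, Sfrp4 0.73, Wnt11 1.10 and Tcf7 -1.80. Every member given above as at least N-fold fell below its bound, so these bounds hold only for the main processing. As log2 differences, Rspo1 became 7.10, Wnt7a -6.91, Rnf43 -4.99, Wnt10a -2.56, Wnt16 1.24, Dkk2 1.01 and Rspo2 0.96. With median scaling Fzd4 became 0.39, Fzd6 -1.09, Lrp5 -0.75 and Notum 0.63, and with the mean of a gene's probes Lgr4 became -1.34, Lrp5 -1.01, Notum 0.54 and Znrf3 -1.30.

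The second comparison asked how HT PSC differ from WT PSC. Of 33 members tested, 6 (18.2%) passed, 1 higher and 5 lower in HT, against 7.72% of all 20882 genes tested (2.94% higher and 4.79% lower). An unadjusted p under 0.05 was found for 14 of the 33 and for 22.2% of all genes. Rspo1 was 5.45-fold lower and Sfrp4 2.77-fold lower in HT, Wnt16 was 4.05-fold higher, and Wnt9a, Wnt4 and Fzd3 were lower by less than 1 log2 unit. The median difference was -0.02 over the members and -0.00 over all genes, and the median size of a difference, regardless of sign, was 0.28 over the members and 0.13 over all genes.

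Among the ligands, Wnt16, which is known for its role in bone and joint, read -3.81, -3.59 and -3.30 in WT PSC and -1.77, -1.55 and -1.31 in HT PSC. All 3 HT arrays lay above all 3 WT arrays, and the difference was 2.02 ± 0.17 (limma adjusted p = 0.00180). Wnt4 read 0.38, 0.21 and 0.16 in WT and -0.59, -0.47 and -0.30 in HT, a difference of -0.70 ± 0.11 (limma adjusted p = 0.0141). Its call was lost without PSC WT 2, PSC WT 3 or PSC HT 2 (adjusted p between 0.0501 and 0.0575) and with no filter on dim probes (adjusted p = 0.0844). Wnt9a read 0.66, 1.06 and 1.07 in WT and -0.12, 0.27 and 0.28 in HT, so the groups did not overlap, and differed by -0.79 ± 0.16 (limma adjusted p = 0.0364). That call was lost in 5 of the 6 fits that left out 1 array, all but the one without PSC WT 1 (adjusted p between 0.0370 and 0.135), and with no filter (adjusted p = 0.148). Wnt2, which read -1.72, -2.23 and -2.38 in WT and -2.74, -3.17 and -3.47 in HT, did not pass (difference -1.02 ± 0.24, limma adjusted p = 0.0563), although its groups did not overlap.

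Of 11 receptors tested, Fzd3 alone passed. It read -2.46, -2.43 and -2.48 in WT and -3.01, -2.86 and -2.79 in HT, a difference of -0.43 ± 0.08 (limma adjusted p = 0.0297), and the call was lost in each of the 6 fits that left out 1 array (adjusted p between 0.0546 and 0.113). Its difference was -0.28 with normexp background correction and with the authors' own series values, past the threshold in neither (adjusted p = 0.111 and 0.0726). Fzd6 was further apart, at -2.07, -1.69 and -1.80 in WT and -2.34, -2.83 and -3.13 in HT, and just missed the threshold (difference -0.91 ± 0.21, limma adjusted p = 0.0551). Of 6 antagonists tested, Sfrp4 passed. It read -3.33, -3.46 and -3.36 in WT and -4.83, -4.89 and -4.84 in HT, where 2 of 3 arrays were well above background, and the difference was -1.47 ± 0.07 (limma adjusted p = 0.000764). At this low signal its size depended on the background correction: it was -0.73 with normexp and -0.75 with the authors' own series values, both still past the threshold. Dkk3 read 4.62 ± 0.09 (SD, n = 3) in WT and 4.75 ± 0.03 (SD, n = 3) in HT, and did not pass.

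Rspo1 had the largest difference of the members. It read 2.79, 3.33 and 3.40 in WT PSC and 0.28, 0.93 and 0.97 in HT PSC, well separated, with a difference of -2.45 ± 0.24 (limma adjusted p = 0.00310). The call held in all 6 fits that left out 1 array, with differences between -2.64 and -2.22, and was lost in a fit of all 15 arrays together (adjusted p = 0.0886). That fit left the difference unchanged and pools the spread with that of the cancer cell arrays, where the SD of Rspo1 was 1.97 with HT medium. The related Rspo3 read 0.44, 0.86 and 0.69 in WT and 0.35, 0.92 and 0.98 in HT, so these groups overlapped, and Rspo2 did not pass either. Lgr4 read -0.69, -0.50 and -0.65 in HT PSC, above all 3 WT arrays, but did not pass, and its other probe above background differed by -0.09 ± 0.14. Lef1 read -2.28 ± 0.19 (SD, n = 3) in WT and -2.77 ± 0.34 (SD, n = 3) in HT, with overlapping groups, and did not pass.

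**Figure D3:**
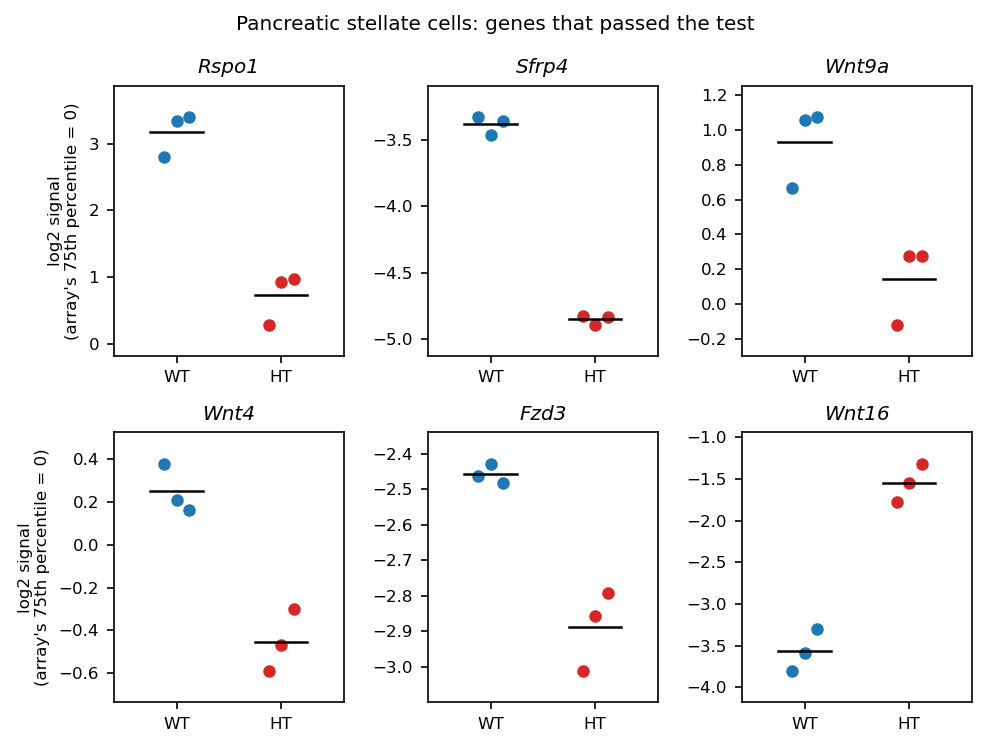
Level of the 6 members that passed the test between PSC genotypes (vertical axis, log2 signal with the array's 75th percentile at 0; each panel has its own range). Each point is 1 array, 3 WT in blue and 3 HT in red, and the bar is the mean. Rspo1 falls from 3.17 to 0.73 and Wnt16 rises from -3.57 to -1.55. The 6 were picked by the test on these same values, so the lack of overlap in their panels is not a result of its own.

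Both slides held both genotypes. With the slide as a block, Rspo1 differed by -2.30, Wnt16 by 2.08 and Sfrp4 by -1.50, all still past the threshold. Within slide 1, with 1 WT and 2 HT arrays, they differed by -2.17, 2.26 and -1.51, and within slide 2, with 2 WT and 1 HT arrays, by -2.43, 1.89 and -1.49. Wnt4 and Wnt9a differed within slide 1 by -0.82 and -0.58, and within slide 2 by -0.65 and -0.79. With 1 array of a genotype on each slide, these are values with no test of their own. Without PSC HT 3 the count of members called was 4, namely Rspo1 at -2.57, Wnt16 at 1.90, Sfrp4 at -1.48 and Wnt4 at -0.78. Of the HT arrays, HT 1 and HT 3 had spike-in slopes of 1.05 and 1.06, whereas HT 2 at 0.896 lay with the WT arrays. With HT 2 as the only HT array, an alternative added after the data were seen, Rspo1 differed by -2.24, Wnt16 by 2.01, Sfrp4 by -1.51, Wnt4 by -0.72, Wnt9a by -0.66 and Fzd3 by -0.40. That fit has to assume that the lone HT array varies like the WT arrays, so its calls are not used here.

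Markers of other cell types moved with the genotype. In bulk RNA, fewer cells of a type and less RNA per cell cannot be told apart. Rspo1 is also a marker of mesothelium, the lining of the abdominal organs, and of the other 9 mesothelial markers, of which Krt19 is also on the epithelial list, 7 were lower in HT, none was higher, and their median level ranged from 1.01 to 1.69 on WT arrays and from -1.00 to -0.04 on HT arrays. Upk3b read 2.21, 2.74 and 2.65 in WT and -0.46, 0.01 and -0.04 in HT, a difference of -2.70 ± 0.19, and Wt1 differed by -1.16 ± 0.08. Msln, which overlapped between genotypes, read 2.25, 2.89 and 2.88 in WT and 0.24, 1.36 and 2.56 in HT, so PSC HT 3 lay above PSC WT 1. Of 15 macrophage markers 11 were higher in HT and none lower, with a median level from -1.53 to -0.39 in WT and from 1.09 to 1.79 in HT; Lyz2 read 4.28, 3.39 and 3.20 in WT and 6.90, 5.62 and 5.61 in HT. Of 6 endothelial markers tested 5 were lower in HT, among them Cdh5 by -2.86 ± 0.20, with a median over the list from -4.25 to -3.88 in WT and from -5.65 to -5.50 in HT. Of 14 stellate cell markers tested 1 was higher and none lower. Among the smaller lists, 1 Schwann cell marker was higher and 2 were lower of 6 tested, and none of 7 epithelial and 2 acinar markers tested passed. The part of these cells in the differences of Rspo1, Sfrp4, Wnt16, Wnt4 and Wnt9a was not tested.

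**Figure D4:**
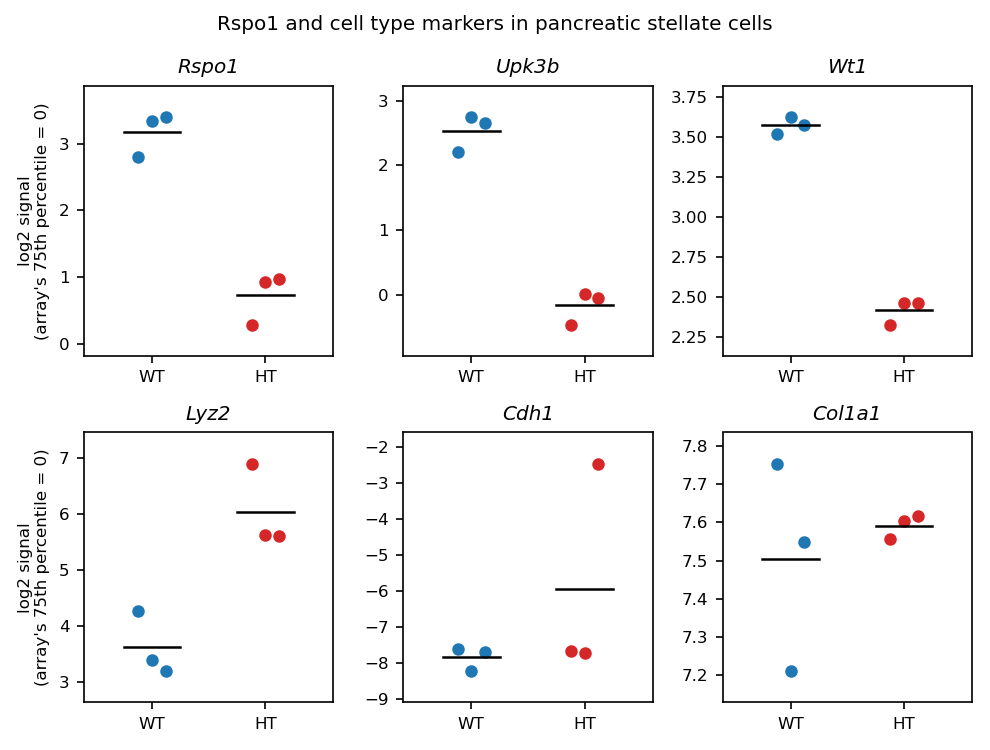
Rspo1 beside the mesothelial markers Upk3b and Wt1, the macrophage marker Lyz2, the epithelial marker Cdh1 and the stellate cell collagen Col1a1 on the 6 PSC arrays (vertical axis, log2 signal with the array's 75th percentile at 0; each panel has its own range; bar, mean of 3 arrays). Upk3b and Wt1 fell and Lyz2 rose in HT with no overlap, Cdh1 stood out on PSC HT 3 alone at -2.45, and Col1a1 overlapped between genotypes.

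In the wider pathway, 6 of 18 secretion and modulator genes tested passed between the PSC genotypes, 3 in each direction; these counts too stand beside 7.72% of all genes. Cthrc1, a secreted Wnt cofactor, was lower in HT by -1.12 ± 0.17 and the sulfatase Sulf2 by -0.57 ± 0.08, whereas Trabd2b was higher by 0.45 ± 0.08 and the membrane inhibitor Apcdd1 by 0.44 ± 0.09. In the destruction and nuclear complexes none of 32 tested was higher and 2 were lower, Amer1 by -0.44 ± 0.08 and Btrc by -0.33 ± 0.07. In the polarity and calcium branches 1 of 21 was higher and 2 were lower. They were Nfatc2, higher by 2.35 ± 0.43, the cadherin Celsr1, lower by -1.17 ± 0.19, and Rhou, lower by -0.45 ± 0.07. Of 26 Wnt and beta-catenin target genes tested, limma called none, with a median difference of 0.12.

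The third comparison asked what medium conditioned by PSC does to these genes in cancer cells. Medium of WT PSC changed 5 of 26 members tested (19.2%), 3 higher and 2 lower, against 5.95% of all 19680 genes (2.8% higher and 3.15% lower). Medium of HT PSC changed 5 of the same 26 (19.2%), 4 higher and 1 lower, against 5.47% of all genes (2.97% higher and 2.49% lower). An unadjusted p under 0.05 was found for 11 of 26 members with WT medium and 20.2% of all genes, and for 10 of 26 with HT medium and 19.8% of all genes. Both comparisons use the same 3 control arrays, so their values are set side by side and the overlap is not a result of its own. In each, Wnt9a, Wnt7a and Wnt7b were higher and Lgr4 was lower, by 1.30- to 1.55-fold, with median differences over the members of 0.00 in both. With HT medium the calls of Wnt7a, Wnt7b, Lgr4 and Tcf7 were each lost with median scaling, with no filter on dim probes and with all 15 arrays in 1 fit (adjusted p between 0.0615 and 0.882). The fit of all 15 arrays leaves the differences as they are and pools the spread with that of the PSC arrays.

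Wnt7a, the epithelial ligand that was not well above background in WT PSC, read 3.12, 3.02 and 2.99 after control medium, 3.47, 3.60 and 3.78 after WT medium and 3.40, 3.44 and 3.41 after HT medium. All 6 arrays of conditioned medium lay above all 3 control arrays. The differences were 0.57 ± 0.08 with WT medium (limma adjusted p = 0.00615) and 0.38 ± 0.08 with HT medium (limma adjusted p = 0.0395). The WT call was lost in the fit of all 15 arrays (adjusted p = 0.752), where the difference stayed at 0.57. The SD of Wnt7a, which that fit pools over the groups, was 2.10 in HT PSC and 0.16 with WT medium. The HT call was lost in 7 of 9 fits that left out 1 array, all but those without WT medium 1 or WT medium 3 (adjusted p between 0.0290 and 0.116 over the 9), with the authors' own series values (adjusted p = 0.0736) and with normexp background correction (adjusted p = 0.0664).

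Wnt7b, the closest relative of Wnt7a, read 0.43, 0.29 and 0.43 after control medium, 0.91, 0.90 and 0.90 after WT medium and 0.80, 0.70 and 0.83 after HT medium, again with no overlap. It differed by 0.52 ± 0.06 with WT medium (limma adjusted p = 0.00274) and by 0.40 ± 0.06 with HT medium (limma adjusted p = 0.0116); the HT call was lost without HT medium 1 (adjusted p = 0.0512). Wnt9a read -3.41, -3.49 and -3.49 after control medium, -2.95, -2.85 and -2.69 after WT medium and -2.96, -2.77 and -2.80 after HT medium. Its differences of 0.63 ± 0.08 (limma adjusted p = 0.00398) and 0.62 ± 0.08 (limma adjusted p = 0.00523) held in all 9 fits that left out 1 array. Wnt9a was thus the 1 member called with both media that also differed between the PSC genotypes, where it was lower in HT.

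Wnt4 went the other way at low signal. It read -4.23, -4.47 and -4.84 after control medium, -5.36, -5.40 and -5.78 after WT medium and -5.56, -5.01 and -5.31 after HT medium, where 3, 1 and 2 arrays were well above background. It was lower by -1.00 ± 0.19 with WT medium (limma adjusted p = 0.0202), a call lost without control 1, control 2, WT medium 2 or WT medium 3 (adjusted p between 0.0521 and 0.0841) and with no filter (adjusted p = 0.0784). With normexp background correction the difference fell to -0.32 and the call was lost (adjusted p = 0.0868), and with the authors' own series values it fell to -0.30 (adjusted p = 0.0455). With HT medium it differed by -0.78 ± 0.19, which did not pass (limma adjusted p = 0.0569).

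None of the 11 receptors and neither of the 2 antagonists tested passed with either medium. The receptors with an unadjusted p under 0.05 were Fzd2, at 0.31 ± 0.08 with WT and 0.19 ± 0.08 with HT medium, Fzd5, at -0.58 ± 0.18 and -0.50 ± 0.18, and, with a single medium each, Fzd1, Fzd4 and Fzd7. In the R-spondin axis, Lgr4 read 0.89, 0.91 and 0.74 after control medium, 0.27, 0.32 and 0.21 after WT medium and 0.42, 0.55 and 0.37 after HT medium. Every conditioned array lay below every control array. The difference was -0.58 ± 0.08 with WT medium (limma adjusted p = 0.00364) and -0.40 ± 0.08 with HT medium (limma adjusted p = 0.0212). The WT call was lost with the mean of all Lgr4 probes, which differed by -0.41 (adjusted p = 0.108), and with all 15 arrays in 1 fit (adjusted p = 0.231). The HT call was lost with the mean of all probes (adjusted p = 0.0909) and without control 1, control 2, HT medium 1 or HT medium 3 (adjusted p between 0.0709 and 0.0847). Rnf43 and Znrf3 did not pass with either medium. Rspo1, not well above background on any control array, read -7.23, -7.44 and -4.90 after WT medium and -3.65, -6.97 and -7.13 after HT medium, so a single array of each was above background and no test was made.

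Tcf7, a DNA-binding partner of beta-catenin, read -2.15, -2.17 and -1.88 after control medium, -1.67, -1.83 and -1.95 after WT medium and -1.60, -1.57 and -1.62 after HT medium. The WT medium arrays overlapped with the controls and the HT medium arrays did not. It was higher by 0.47 ± 0.10 with HT medium (limma adjusted p = 0.0321), a call lost without control 1, control 2, WT medium 2 or any one of the 3 HT medium arrays (adjusted p between 0.0572 and 0.103), and differed by 0.25 ± 0.10 with WT medium, which did not pass. Second probes of Lgr4, Wnt7a, Wnt7b and Tcf7 differed in the same direction as the first. When each probe was tested by itself, which was added after the data were seen, 2 further members passed with WT medium on a probe other than the brightest: Lgr6 at 0.82 ± 0.15 (limma adjusted p = 0.0201) and Wnt5a at -0.68 ± 0.14 (limma adjusted p = 0.0313). The brightest probe of Wnt5a differed by -0.50 ± 0.13 and did not pass, and that of Lgr6 was not well above background on all arrays of any group.

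**Figure D5:**
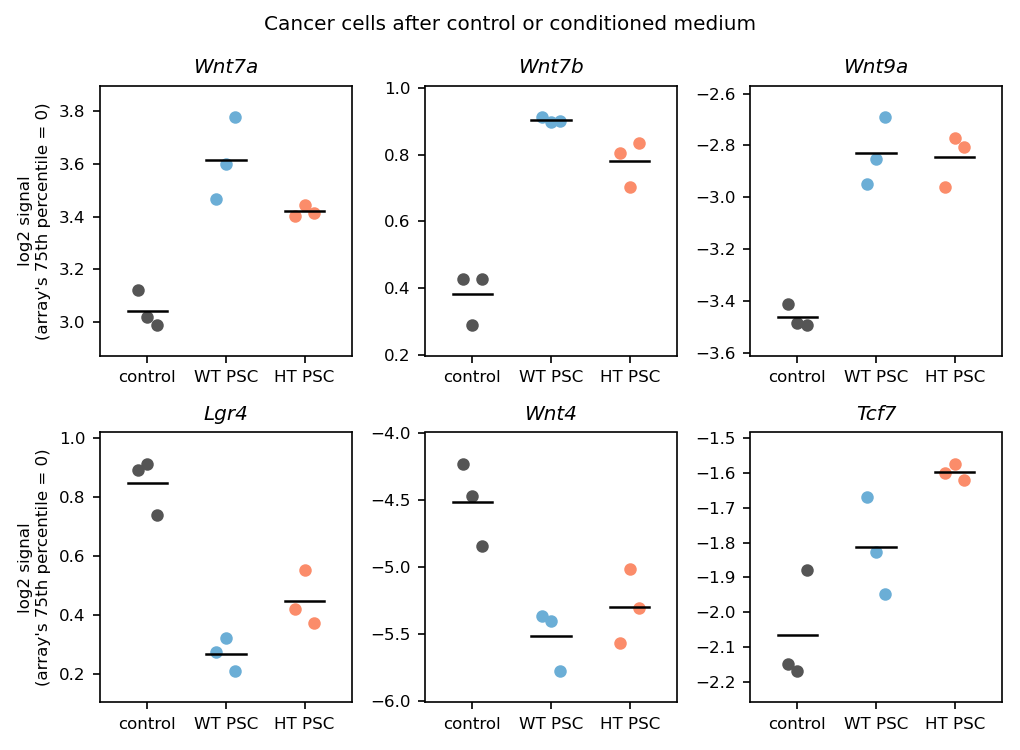
Level of the 6 members called with either conditioned medium in cancer cells (vertical axis, log2 signal with the array's 75th percentile at 0; each panel has its own range). Each point is 1 array, 3 for each of control medium, WT PSC medium and HT PSC medium, and the bar is the mean; Wnt7a, Wnt7b and Wnt9a lie above and Lgr4 below the control points with both media, and no member passed the test between the 2 PSC media.

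The direct contrast of HT against WT medium is the test of a difference between the media. Limma called no gene of 19680 (0%), and 961 (4.88%) had an unadjusted p under 0.05. Among the 26 members 3 had one: Wnt7a at -0.20 ± 0.08, Lgr4 at 0.18 ± 0.08 and Fzd6 at 0.26 ± 0.11, all with an adjusted p of 0.984. The differences of all members in this contrast lay between -0.20 and 0.35. The call of Tcf7 with HT medium only and that of Wnt4 with WT medium only are therefore not shown to differ between the media.

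Slides were mixed here too. Within slide 1, with 2 control, 1 WT medium and 2 HT medium arrays, Wnt9a differed by 0.50 with WT and 0.57 with HT medium, Wnt7a by 0.41 and 0.35, Wnt7b by 0.49 and 0.39, and Lgr4 by -0.54 and -0.42. Within slide 2, with 1 control, 2 WT medium and 1 HT medium arrays, Wnt9a differed by 0.71 and 0.71, Wnt7a by 0.67 and 0.42, Wnt7b by 0.61 and 0.41, and Lgr4 by -0.65 and -0.36. Wnt4 with WT medium differed by -0.83 and -1.12 within slides 1 and 2, and Tcf7 with HT medium by 0.40 and 0.60. Each kept its direction within both slides. With a single array of some media on each slide, these are given as values only.

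Markers of cell types moved in part with conditioned medium as well. Of 14 epithelial markers tested, 2 were higher and 3 lower with WT medium and 2 were higher and 2 lower with HT medium, among them the tight junction gene Cldn4, higher by 1.03 ± 0.12 and 0.95 ± 0.12, and the epithelial factor Elf3, lower by -0.55 ± 0.08 and -0.44 ± 0.08. Of 9 macrophage markers tested, 2 were higher with each medium, namely Mrc1 by 0.52 ± 0.08 and 0.69 ± 0.08 and Cd68 by 0.52 ± 0.08 and 0.55 ± 0.08. The median over the macrophage list lay between -4.88 and -4.28 with control, -4.90 and -4.38 with WT and -4.81 and -4.64 with HT medium. With either medium no stellate cell marker of 5, mesothelial marker of 2 or endothelial marker of 3 tested passed. Of 4 Schwann cell markers, 1 was higher and 1 lower with WT medium, and of 2 acinar markers 1 was lower with HT medium. The part of these markers in the differences of Wnt7a, Wnt7b, Wnt9a, Wnt4, Lgr4 and Tcf7 was not tested.

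The wider pathway is read against the same 5.95% of all genes with WT medium and 5.47% with HT medium. The surface glycoprotein Tpbg was higher with both, by 0.40 ± 0.10 with WT and 0.42 ± 0.10 with HT medium, as the 1 of 14 secretion and modulator genes tested that passed in each. Of 31 destruction and nuclear complex genes, 2 were lower with WT medium, the nuclear factor Tcf7l2 by -0.38 ± 0.07 and the cofactor Bcl9l by -0.33 ± 0.06, and none passed with HT medium. Of 17 polarity and calcium branch genes, Nfatc2 was lower with WT medium by -0.32 ± 0.07 and Daam1 was higher with HT medium by 0.34 ± 0.07. Of 24 target genes, 1 was higher and 1 lower with WT medium, namely Ccn4 by 0.58 ± 0.12 and Id2 by -0.50 ± 0.09, and 2 were higher with HT medium, namely Myc by 0.35 ± 0.07 and Fosl1 by 0.34 ± 0.08.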

How the data were processed

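Total RNA of 6 PSC and 9 cancer cell samples was hybridised to single-colour (Cy3) Agilent arrays on 2 slides. The deposited scanner files hold each spot's intensity, which Agilent Feature Extraction 10.7.3.1 had background-subtracted, per the file headers; probe positions there are in mm9. The authors also deposited log2 values, used only as an alternative; they followed the log2 mean signal of each array (r between 0.995 and 0.999) with an unstated scaling.

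Here log2 of the processed signal was taken minus each array's 75th percentile over 59305 non-control spots. Outlier-flagged spots were left out, 49 to 115 an array, and repeated spots averaged. Of the probes, 33903 were named by accession, 9458 by symbol and 488 by synonym through RefSeq's GRCm38.p6 table, and 12756 kept the file's name. The probe with the highest mean over the 15 arrays stood for a gene. Testing required this probe to lie well above background on each array of 1 or more of the groups fitted. Differences were tested with limma 3.58.1 in R 4.3.3 (lmFit, eBayes), with fits on the 6 PSC arrays, on the 9 cancer cell arrays, and on WT PSC with control cancer cells; p-values were adjusted by Benjamini-Hochberg over all genes tested. The fit was tested on simulated data. The number of arrays limits the precision. Bounds written as at least N-fold set the brighter group's mean against, for each dim array, the higher of the probe's own signal and the lowest signal well above background.

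Arrays of WT medium and control with the same replicate number deviated together (correlations 0.205, 0.252 and 0.219). The highest correlation with another number was 0.223, 0.210 and 0.223, so the numbers are not shown to pair these arrays. A replicate block was fitted as an alternative. Other alternatives were background correction, scaling, filter, probe choice, slide, variance model, arrays in the fit, threshold and leaving out each array. By the rule fixed for naming, members measured throughout at least 1 group could be named, and those past the threshold carry values. Members that did not pass, or were not measured throughout a group, are named beyond that rule and were chosen after their values were seen. Of each pathway list at most 4 genes a comparison were named by size. The members and all lists were chosen with earlier results of these data known.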

Additional observations from a re-analysis of the deposited data

How the results depend on the processing

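Across 898 recomputed differences of the members called in a comparison, 782 kept direction and call, 116 kept direction and lost the call, and none changed sign. These members were picked by their call on the same arrays, so a kept direction is not a result of its own. Some settings, namely no filter, the variance model and all 15 arrays in 1 fit, cannot change a difference, only its spread or adjusted p. Most of the 898 came from the cell type comparison, where 547 of 560 kept the call. It was kept in 80 of 119 between PSC genotypes, 90 of 109 with WT medium and 65 of 110 with HT medium. These totals include fits with groups of 1 array. Where the count of members called moved by more than 1.5 times, the cause was not tested unless stated. Between PSC genotypes the count of 6 became 3 with no filter on dim probes, 3 with a 2-fold minimum and 0 within slide 1, and ranged from 3 to 7 when 1 array was left out; it was 3 without PSC WT 2 and without PSC WT 3. With WT medium the count of 5 became 1 with the 2-fold minimum and 0 within slide 1 and within slide 2, and ranged from 4 to 6 without 1 array. With HT medium the count of 5 became 2 with median scaling, 1 with no filter, 2 with all 15 arrays in 1 fit, 0 with the 2-fold minimum and 0 within each slide. It ranged from 1 to 5 without 1 array, with 1 without HT medium 1, 2 without control 1, control 2 or HT medium 3, and 3 without WT medium 2 or HT medium 2. The direct contrast of the media stayed at 0 members in each alternative. Between cell types the count of 32 became 16 where a probe had to be above background on all 6 arrays, a filter that removes genes measured in 1 cell type, and ranged from 31 to 32 without 1 array. The count over all genes, 1613, 1171, 1076 and 15648 in these 4 comparisons, fell to 398, 468, 334 and 15361 with no filter and to 582, 148, 103 and 8448 with the 2-fold minimum; with median scaling the media gave 654 and 519, and with the mean of a gene's probes 775 and 676. It was 2484 between PSC genotypes with all 15 arrays in 1 fit and 543 with PSC HT 2 as the only HT array; within slides 1 and 2 it was 0 and 418, 166 and 61, and 0 and 0 in the first 3 comparisons. Without 1 array it fell as far as 552, 578 and 496 in these. Between the media it was 0 and reached 115 within slide 1. Fits within a slide, and that with PSC HT 2 alone, hold groups of 1 array and say nothing about stability.

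With the replicate block the member counts were 5 between PSC genotypes, 5 and 3 with WT and HT medium, 0 between media and 31 between cell types. No member call changed under it with WT medium. The replicate numbers were not shown to pair the arrays in any comparison. With WT medium, arrays of the same number deviated together no more clearly than arrays of different numbers. Between PSC genotypes the correlations were 0.195, 0.027 and -0.107, and with HT medium 1 of 3 was below 0. With 3 arrays a group, small differences at low signal, such as Wnt4 in cancer cells, could not be measured well. The 16 members whose brightest probe was never well above background across a group were left out of the main tests. Of these, Lgr6 was tested on a dimmer probe only.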
